A study of Mus musculus with 34 samples.

Results

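Major histocompatibility complex class I genes were followed in mouse liver RNA from animals with and without a floxed Setd8 allele and Alb-Cre. The 10 genes were H2-K1, H2-D1, H2-K2, H2-Bl, H2-T23, H2-T24, H2-Q3, H2-Q6, H2-Q7 and B2m, out of 37583 genes with a row in the mRNA files. They were chosen by name and on their measured mRNA values in the same 6 libraries, so their differences between the groups are given as a description with no test. All 10 passed the filter on low values that left 16813 genes for testing, which asks for 3 or more libraries with a scaled value of 10 or more.

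The knockout (KO) livers were labelled Setd8lox/lox-Alb-Cre, and the wild-type (WT) livers carried no such label. Alb-Cre is a Cre transgene driven by the albumin promoter, which is active in hepatocytes. Whether other cells of the liver lost the floxed allele was not tested. Both groups were F1 mice of C57Bl6 and CBA at 45 days of age. Messenger RNA was sequenced in 3 KO and 3 WT libraries, and nascent RNA in 1 KO and 1 WT library by each of 2 methods. In the first method, mice received ethynyl uridine (EU) at 25 mg per kg and their nuclear RNA was captured after 30 min. In the second, isolated nuclei ran on for 3 min with bromouridine triphosphate (Br). The series also holds 24 chromatin and input samples, not used here. Replicates carry numbers and no animal names, so the spread between libraries may be partly technical.

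Class I molecules display peptides from inside the cell at its surface, where CD8 T cells and natural killer cells read them. Each consists of a heavy chain, encoded in mice by the H2 complex on chromosome 17, and of the light chain beta-2 microglobulin, encoded by B2m on chromosome 2. The heavy chain genes fall into the classical genes H2-K1 and H2-D1, which nearly all nucleated cells express, and the nonclassical genes of the Q, T and M groups, with narrower expression or fewer alleles. Their transcription is driven by a conserved upstream block with a kappa B site (enhancer A), an interferon response element and sites bound by the NLRC5 complex. H2 haplotypes differ between inbred strains in sequence and in gene content. C57BL/6 carries haplotype b and CBA carries haplotype k.

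Before the values, the promoters of 4 of the genes are shown, because H2-Q6 and H2-Q7 had near-identical promoters and opposite mRNA differences, while H2-K1 and B2m encode the 2 chains of the same classical molecule. Promoter sequences of 6 of the 10 genes were found in RefSeq on GRCm38.p6, each running from 250 bases before to 50 bases after a start. Those shown lie at chr17:34000298-34000597 (minus strand) for H2-K1, the first of 2 starts listed, chr17:35424600-35424899 (plus strand) for H2-Q6, chr17:35438905-35439204 (plus strand) for H2-Q7 and chr2:122147437-122147736 (plus strand) for B2m. Capitals mark matches, on either strand, to the kappa B letters GGGGATTCC, the interferon response core AANNGAAA, the core TGACG of the X2 or cAMP response site, and the CCAAT box. No matches overlapped each other.
H2-K1: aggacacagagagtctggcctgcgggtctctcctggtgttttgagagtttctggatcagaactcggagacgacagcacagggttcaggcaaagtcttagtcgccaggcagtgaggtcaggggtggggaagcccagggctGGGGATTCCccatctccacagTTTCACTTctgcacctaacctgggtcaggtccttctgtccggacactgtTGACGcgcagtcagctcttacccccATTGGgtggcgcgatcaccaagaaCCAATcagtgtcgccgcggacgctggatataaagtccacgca
H2-Q6: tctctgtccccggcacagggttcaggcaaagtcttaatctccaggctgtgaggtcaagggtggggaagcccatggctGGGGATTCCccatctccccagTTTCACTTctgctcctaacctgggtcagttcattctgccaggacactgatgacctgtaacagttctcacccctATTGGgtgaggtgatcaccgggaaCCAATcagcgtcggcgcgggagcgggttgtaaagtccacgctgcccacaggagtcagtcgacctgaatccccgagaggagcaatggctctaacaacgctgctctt
H2-Q7: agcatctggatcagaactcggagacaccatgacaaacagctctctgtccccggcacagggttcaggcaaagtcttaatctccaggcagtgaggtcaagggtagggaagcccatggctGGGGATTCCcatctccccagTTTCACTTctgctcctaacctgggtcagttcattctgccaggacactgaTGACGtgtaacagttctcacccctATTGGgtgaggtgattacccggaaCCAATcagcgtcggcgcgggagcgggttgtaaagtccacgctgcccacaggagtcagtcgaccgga
B2m: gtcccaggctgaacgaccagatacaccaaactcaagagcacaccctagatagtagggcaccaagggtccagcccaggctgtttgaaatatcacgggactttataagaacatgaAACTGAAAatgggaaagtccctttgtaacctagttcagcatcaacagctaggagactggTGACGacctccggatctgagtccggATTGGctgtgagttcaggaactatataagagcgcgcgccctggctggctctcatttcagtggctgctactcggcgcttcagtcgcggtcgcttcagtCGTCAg

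The kappa B letters were found in the promoters of H2-K1, H2-D1, H2-Q6 and H2-Q7, and in 0.250% of 32851 promoters of the same length. The interferon response core was present in all 6 promoters found, against 23.9% of all promoters. TGACG was present in those of H2-K1, H2-D1, H2-Q7 and B2m and in 20.8% of all, and CCAAT in all 6 and in 37.4% of all. The promoter of H2-Q6 differed from that of H2-Q7 in having no match to TGACG. Aligned end to end with free ends, the promoters of H2-Q6 and H2-Q7 were identical at 254 of 261 positions (97.3%), and those of H2-K1 and H2-D1 at 211 of 240 (87.9%). B2m shared 47.7% with H2-K1, and H2-T23 shared 49.0% with H2-K1. A match to these letters is a description of the window and was not tested as a binding site.

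Reads of such similar genes can be assigned to the wrong member. Of all 50-base words in the GENCODE transcripts of each gene, 32.0% of those of H2-Q6 and 26.4% of those of H2-Q7 also occurred in transcripts of another gene, mostly of the Q group. The share was 9.63% for H2-K1, 9.38% for H2-K2, 9.40% for H2-Bl, 12.8% for H2-D1, 13.6% for H2-T23 and 3.17% for H2-T24. It was 0% for B2m and H2-Q3. With words of 100 bases it was 10.8% for H2-Q6 and 12.0% for H2-Q7, and at most 3.59% for the other 8. By this measure the assignment of reads to H2-Q6 and H2-Q7 is the least certain of the set. Sequence differences between the haplotypes are not in these transcripts, and their effect on the assignment of reads was not tested.

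Across the 6 mRNA libraries, reads re-estimated from the scaled values lay between 15638705 and 27117185. WT replicate 3 separated from the others along the leading principal component (43.9% of the variance) and detected 20077 genes, against 24497 to 26247 elsewhere. Setd8 mRNA was not lower in the libraries labelled KO, with scaled values of 1199, 1040 and 1075 in KO and 593, 615 and 1076 in WT (log2 difference 0.59 ± 0.25, SE; adjusted p = 0.244 by limma). A gene total need not show the loss of a single exon. The 10 hepatocyte markers looked for were all detected. Fewer cells of a type and less RNA per cell cannot be told apart in whole liver. Macrophage markers moved with the group labels: of 15, 14 had a positive log2 difference (median 1.29), 10 did not overlap between the groups, and Csf1r and Cd14 passed limma's threshold. Their summed scaled values ranged from 12268 to 26666 in KO and from 8453 to 10008 in WT, with no marker at 0. Of 15 lymphocyte markers tested, 14 also had a positive log2 difference (median 0.30), with overlap in all 15, and their sums ranged from 235 to 496 in KO and from 189 to 353 in WT.

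The classical heavy chains were not lower in KO livers. H2-K1 had scaled values of 38483, 43480 and 26913 in KO and 32464, 18181 and 25679 in WT, which overlap. Its means were 36300 ± 8500 in KO and 25400 ± 7140 in WT (SD, n = 3 each), a log2 difference (KO minus WT) of 0.52 ± 0.29 (SE of the fit). H2-D1 had scaled values of 17998, 21879 and 10925 in KO and 19217, 10792 and 13501 in WT, a log2 difference of 0.21 ± 0.32. The groups overlapped, and without KO replicate 2 its difference was -0.01. Within each group the libraries ranked alike for both genes, KO replicate 2 being the highest and KO replicate 3 the lowest of the KO livers. In KO that order is also the order of the summed macrophage markers, lymphocyte markers, class II genes and interferon response genes. In WT both genes were highest in replicate 1 and lowest in replicate 2. The summed interferon response genes kept that WT order, and the macrophage markers, lymphocyte markers and class II genes did not. The part of macrophages or other cells in these values was not tested.

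B2m, the light chain, varied more between libraries than between groups. Its scaled values were 8888, 23347 and 14228 in KO and 12110, 7119 and 30583 in WT. The means were 15500 ± 7310 in KO and 16600 ± 12400 in WT, and the log2 difference was 0.05 ± 0.54. WT replicate 3 held the highest value and WT replicate 2 the lowest, so that the sign turned with the library left out. It was 0.63 without WT replicate 3 and -0.42 without WT replicate 2.

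H2-K2, a transcribed pseudogene that neighbours H2-K1, had the largest difference of the 10 genes. Its scaled values were 826, 515 and 416 in KO and 4685, 2601 and 3548 in WT. Every KO library was below every WT library, with means of 586 ± 214 in KO and 3610 ± 1040 in WT. The log2 difference of -2.64 ± 0.31 is a 6.24-fold lower level in KO. With each library left out in turn it lay between -2.92 and -2.43. H2-Bl, annotated as a polymorphic pseudogene and named for its detection in blastocysts, showed 265, 149 and 150 in KO and 1468, 962 and 640 in WT. These groups did not overlap either, with a log2 difference of -2.41 ± 0.35. H2-Q3, an unprocessed pseudogene, was near the filter, at 16, 9 and 12 in KO and 77, 54 and 19 in WT, a log2 difference of -1.76 ± 0.58.

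Both T genes among the 10 had lower values in every KO than in every WT library, and neither passed limma's threshold. H2-T23 encodes Qa-1, the nonclassical molecule that presents leader peptides of other class I chains to natural killer receptors. It had scaled values of 5665, 4993 and 3653 in KO and 11503, 5843 and 5746 in WT, a log2 difference of -0.63 ± 0.31. The groups just failed to overlap, and the difference was -0.30 without WT replicate 1, which held about double the value of the other WT livers. H2-T24, another nonclassical gene, had 120, 158 and 99 in KO and 539, 250 and 207 in WT, a log2 difference of -1.29 ± 0.38.

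The 2 Q genes of the Qa-2 group went in opposite directions. H2-Q6 had scaled values of 1149, 1435 and 533 in KO and 4549, 2893 and 913 in WT, a log2 difference of -1.26 ± 0.59. H2-Q7, which encodes a Qa-2 chain anchored in the membrane by a lipid, had 3233, 4390 and 1901 in KO and 2645, 1681 and 1097 in WT, a log2 difference of 0.82 ± 0.39. Both pairs of groups overlapped. Without WT replicate 3, the lowest WT library for both genes, the difference of H2-Q6 was -1.92 and that of H2-Q7 was 0.51.

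**Figure D1:**
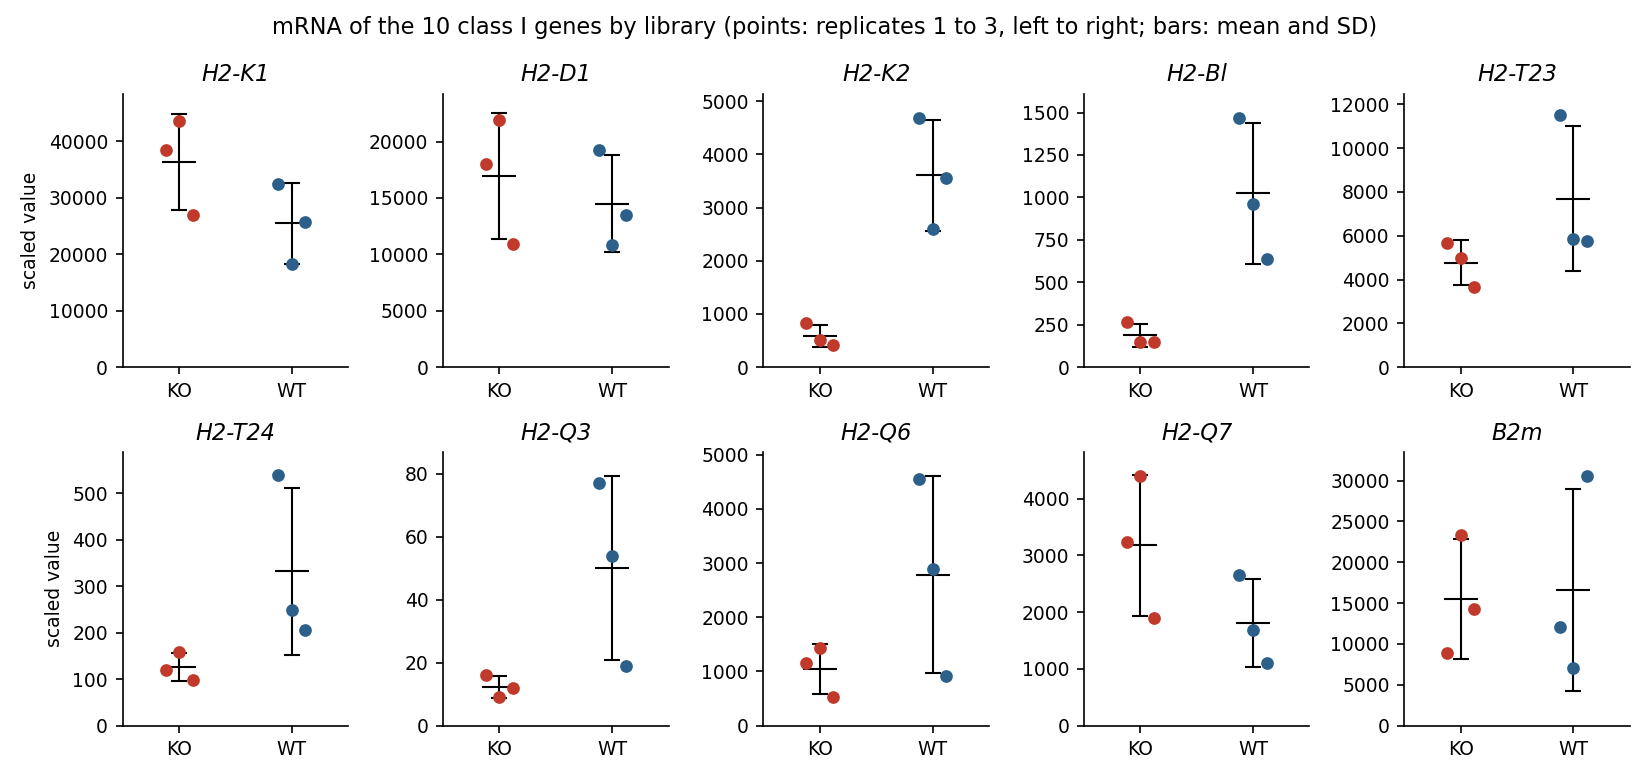
Scaled mRNA value (vertical axes, from 0) of each of the 10 genes in 3 KO (red, left) and 3 WT (blue, right) libraries, with the mean and SD in black. The KO points of H2-K2 (416 to 826) and H2-Bl (149 to 265) lie below all WT points, while those of H2-K1, H2-D1 and B2m overlap the WT points.

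In all, 5 genes (H2-K2, H2-Bl, H2-T23, H2-T24 and H2-Q3) were lower in every KO than in every WT library, and none was higher in that sense. Over all tested genes, 12.8% were lower and 13.2% higher without overlap. H2-K2 and H2-Bl passed an adjusted p of 0.05 by limma, where 1.36% of all tested genes were called lower and 1.35% higher. The members were chosen on this contrast, so nothing is read from these counts. DESeq2 called 4 members, with H2-T24 and H2-Q3 added. The counts also turn on single libraries: without KO replicate 2 no member passed, without WT replicate 2 only H2-K2 did, and without WT replicate 3 there were 5, with H2-T24, H2-Q3 and H2-Q6 added.

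**Figure D2:**
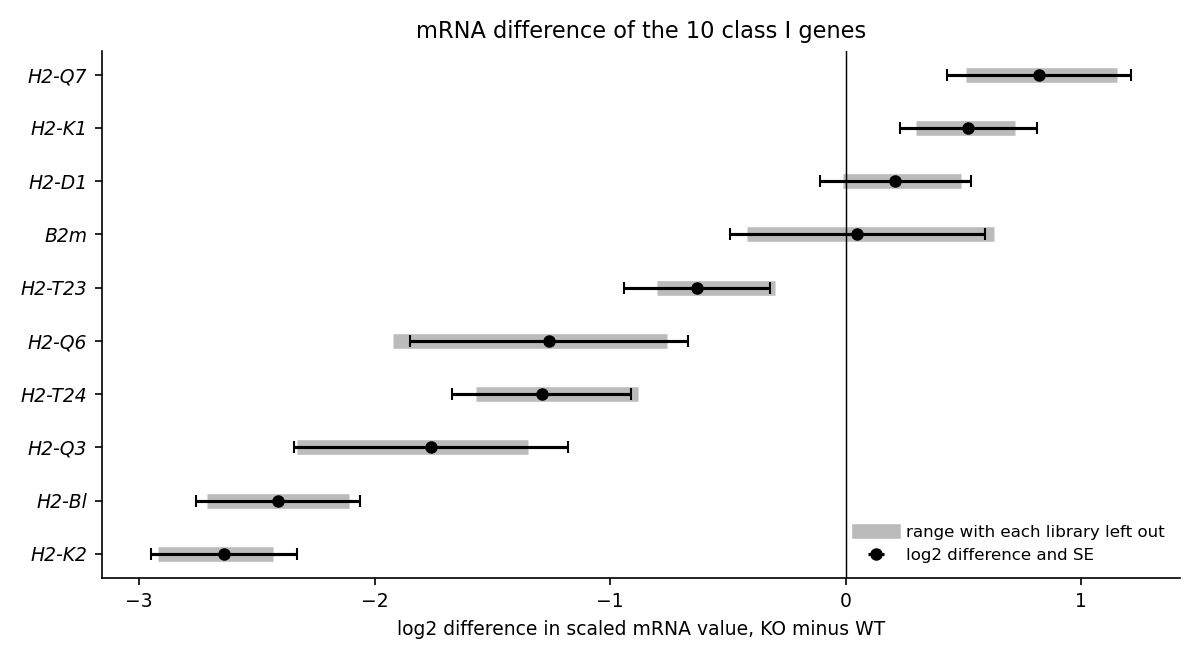
Log2 difference in scaled mRNA value (KO minus WT, horizontal axis) of the 10 genes with its SE, and in grey the range when each library is left out. H2-K2 (-2.64) and H2-Bl (-2.41) lie lowest, H2-Q7 (0.82) and H2-K1 (0.52) highest, and the grey range of B2m spans 0.

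Per kilobase of exon, the levels of the 10 genes covered more than 2 orders of magnitude. B2m led with 18000 ± 8500 scaled units per kilobase in KO and 19300 ± 14400 in WT (SD, n = 3 each). H2-K1 followed with 12400 ± 2890 in KO and 8660 ± 2430 in WT, and H2-D1 with 6570 ± 2150 in KO and 5620 ± 1670 in WT. The libraries of B2m and H2-K1 overlapped in both groups, and those of H2-K1 and H2-D1 overlapped in WT but not in KO. Next came H2-T23 at 1650 ± 355 in KO and 2660 ± 1140 in WT. In KO the order went on with H2-Q7, H2-Q6, H2-K2, H2-Bl, H2-T24 and H2-Q3, of which H2-Q7 and H2-Q6 and then H2-Q6 and H2-K2 overlapped. In WT it went on with H2-K2, H2-Q6, H2-Bl, H2-Q7, H2-T24 and H2-Q3, with overlap between all neighbours except H2-Q7 and H2-T24. H2-K2 thus stood in rank 7 in KO and in rank 5 in WT, at 342 ± 125 units per kilobase in KO and 2110 ± 609 in WT. H2-Q10, a secreted class I chain made by hepatocytes and not one of the 10, had 13300 ± 1830 per kilobase in KO and 14700 ± 1440 in WT.

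Summed over the heavy chain genes among the 10, with the pseudogenes included and H2-Q10 left out, the groups overlapped. H2-Q10 alone had mean scaled values of 57600 in KO and 64100 in WT. The 9 heavy chain genes summed to 67755, 77008 and 44602 scaled units in KO and to 77147, 43257 and 51350 in WT, a log2 difference of 0.15. H2-K1 and H2-K2 together gave 39309, 43995 and 27329 in KO and 37149, 20782 and 29227 in WT, a log2 difference of 0.36. H2-Q6 and H2-Q7 together gave 4382, 5825 and 2434 in KO and 7194, 4574 and 2010 in WT, a log2 difference of -0.03.

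The split within these pairs differed more than their sums. These shares were chosen for description after the values had been seen. H2-K2 made up 2.10%, 1.17% and 1.52% of the H2-K1 and H2-K2 value in KO and 12.6%, 12.5% and 12.1% in WT. The WT livers thus kept a narrow share of 12.4% ± 0.249 while H2-K1 itself varied from 18181 to 32464, and the KO livers were at 1.60% ± 0.470. H2-Q6 made up 26.2%, 24.6% and 21.9% of the H2-Q6 and H2-Q7 value in KO and 63.2%, 63.2% and 45.4% in WT.

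In nascent reads the H2-K2 share was also lower in KO than in WT, by less than in mRNA. The H2-Q6 share was lower in KO by EU and not by Br, with overlapping intervals in both. In EU, H2-K2 made up 39 of 704 reads of the pair in KO (5.54%, 95% Clopper-Pearson interval 3.97 to 7.50) and 195 of 1516 in WT (12.9%, 11.2 to 14.7). In Br it made up 62 of 729 in KO (8.50%, 6.58 to 10.8) and 105 of 701 in WT (15.0%, 12.4 to 17.8). The KO and WT intervals were apart in both methods. H2-Q6 made up 24.9% (21.2 to 28.8) of its pair in KO and 30.2% (28.0 to 32.3) in WT by EU, and 38.0% (32.7 to 43.4) in KO and 36.3% (31.5 to 41.3) in WT by Br. Those intervals overlapped. All intervals cover counting error only, with 1 library per group and no replicate.

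**Figure D3:**
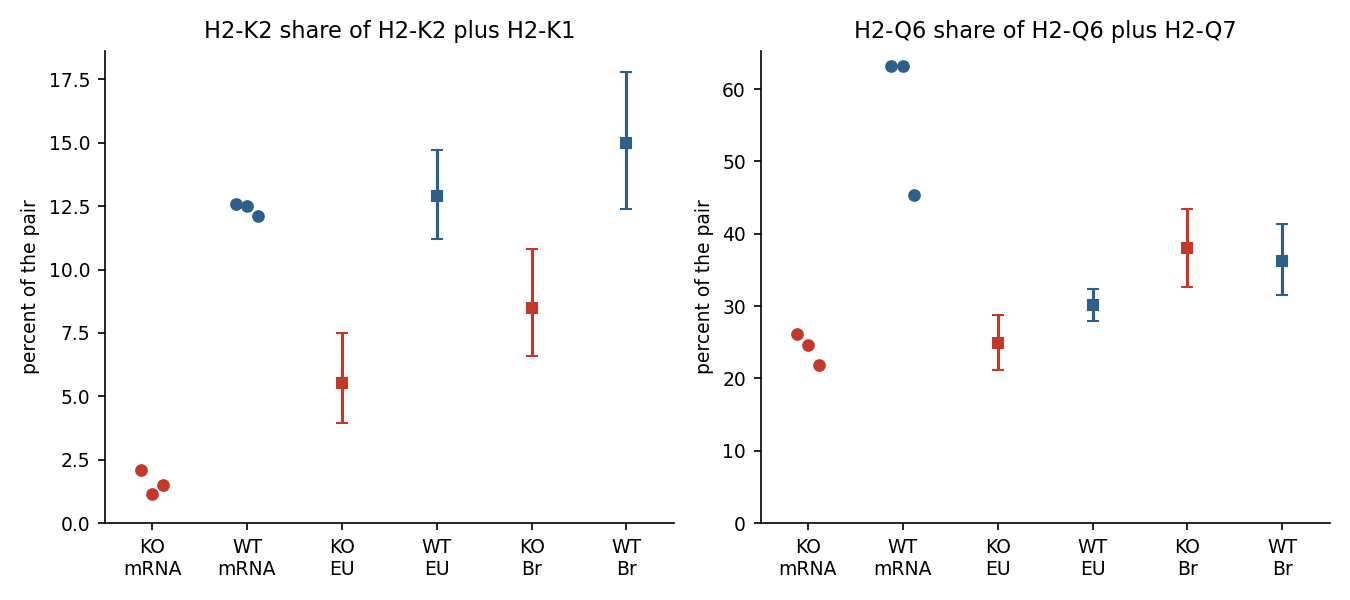
Share of H2-K2 in the H2-K2 and H2-K1 pair (left panel) and of H2-Q6 in the H2-Q6 and H2-Q7 pair (right panel), in percent, for mRNA libraries (points) and nascent libraries (squares with 95% counting intervals), KO in red and WT in blue. H2-K2 lies at 1.17 to 2.10% in KO mRNA and 12.1 to 12.6% in WT mRNA, and KO lies below WT in EU and Br too.

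Nascent levels of the single genes were taken as log2 of KO reads over WT reads, relative to the median gene, with an exact 95% counting interval and no test. The libraries held 5583983 (KO) and 10833287 (WT) reads in EU and 2317840 (KO) and 3156055 (WT) in Br. H2-K1 had 665 reads in KO and 1321 in WT by EU, a ratio of 0.02 (-0.12 to 0.15), and 667 in KO and 596 in WT by Br, a ratio of 0.60 (0.44 to 0.76). H2-D1 had 615 in KO and 1560 in WT by EU, a ratio of -0.34 (-0.47 to -0.20), and 371 in KO and 391 in WT by Br, a ratio of 0.36 (0.16 to 0.57). The methods thus put H2-D1 on opposite sides of the median gene. B2m had 878 EU reads in KO and 900 in WT, a ratio of 0.97 (0.84 to 1.11), and a Br ratio of 0.28 (0.06 to 0.51).

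The genes with lower mRNA in KO were not all lower in nascent RNA. H2-K2 had an EU ratio of -1.31 (-1.85 to -0.81) and a Br ratio of -0.32 (-0.80 to 0.15), both smaller in size than its mRNA difference of -2.64. H2-Bl rested on 26 reads in KO and 41 in WT by EU, a ratio of 0.35 (-0.42 to 1.09), and on 17 in KO and 51 in WT by Br, a ratio of -1.14 (-2.03 to -0.33). H2-T24 had 79 reads in KO and 95 in WT by EU, a ratio of 0.74 (0.29 to 1.19), and 64 in each group by Br, a ratio of 0.44 (-0.08 to 0.96). Its EU ratio was thus above the median gene where its mRNA value was lower, and its Br interval included 0. H2-T23 had ratios of -0.14 (-0.40 to 0.11) in EU and 0.44 (0.17 to 0.71) in Br.

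H2-Q6 and H2-Q7 shared a direction in EU, with ratios of -1.04 (-1.32 to -0.76) for H2-Q6 and -0.65 (-0.82 to -0.49) for H2-Q7. Their Br intervals both included 0, with ratios of 0.26 for H2-Q6 and 0.16 for H2-Q7. H2-Q10, not one of the 10 and with overlapping mRNA groups, had ratios of -1.15 (-1.22 to -1.09) in EU and -0.33 (-0.41 to -0.24) in Br. H2-Q3 had 0 reads in KO and 1 in WT by EU and 2 in KO and 5 in WT by Br, too few to compare. By counting error alone, 2 of the 10 genes lay above the median gene in EU and 4 below it, and 4 lay above and 1 below in Br. Over 12834 genes, 32.2% lay above and 35.2% below in EU, and 18.5% above and 18.9% below in Br. With 1 library per group these counts carry no test.

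**Figure D4:**
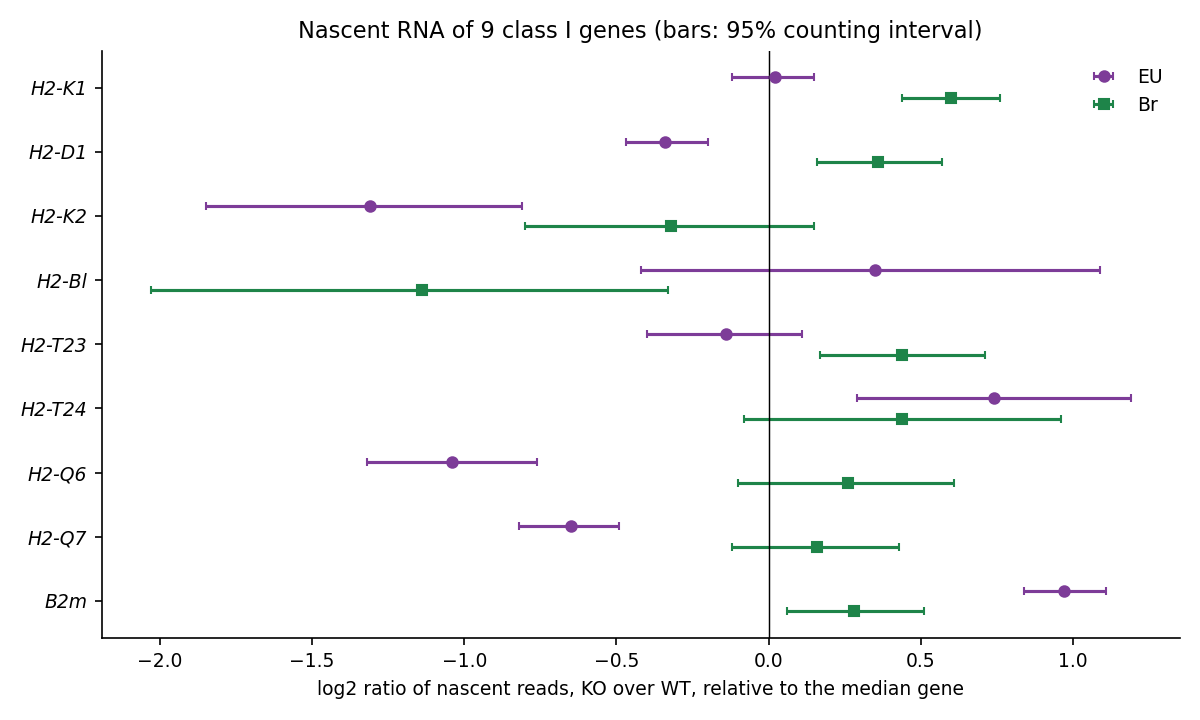
Log2 ratio of nascent reads, KO over WT, relative to the median gene (horizontal axis) for 9 class I genes by EU (purple circles) and Br (green squares), with 95% counting intervals. The EU interval of H2-K2 lies below 0 (ratio -1.31) and its Br interval includes 0 (ratio -0.32), while H2-D1 lies below 0 in EU and above it in Br.

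The other genes of the class I pathway gave no call, so those named from the lists were chosen after their values had been seen. Of 109 genes with a row, in 7 lists of related genes, 90 were tested. By limma, 0 were called higher and 0 lower in KO, with 5 higher and 6 lower at an unadjusted p under 0.05. edgeR also called 0 and 0, and DESeq2 called Hfe, Oas2 and Pirb (3) higher and Irf2 and Psmb10 (2) lower. The median log2 difference was -0.10, against 0.0023 over all tested genes. Without WT replicate 3, where 9.91% of all tested genes were called, 2 genes of the lists were called higher and 7 lower. Among the 7 were the peptide transporter subunit Tap2 and the Q, T and M loci H2-Q2, H2-T3, H2-M2, H2-M3 and H2-M5.

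Among the 13 tested class I loci of the H2 complex beside the 10 genes, 11 had a negative log2 difference (median -0.39) and all groups overlapped. H2-Q1 had scaled values of 1714, 1566 and 1071 in KO and 6770, 2182 and 1309 in WT, and H2-Q10 had 66749, 52057 and 54090 in KO and 58098, 63639 and 70632 in WT. Of 10 genes of peptide transport and loading, 4 had a positive and 6 a negative difference (median -0.19). Tap1, a subunit of the transporter that brings peptides into the endoplasmic reticulum, had a log2 difference of 0.27 ± 0.44 (limma adjusted p = 0.792), and Tap2, its partner, of -0.57 ± 0.48 (limma adjusted p = 0.567). Of 5 immunoproteasome and activator genes, 4 had a negative difference (median -0.39). Psmb10, a catalytic subunit of the immunoproteasome, had 2171, 1713 and 1202 in KO and 5095, 3013 and 2749 in WT, a log2 difference of -1.08 ± 0.31 that missed the threshold (limma adjusted p = 0.103; DESeq2 adjusted p = 0.017).

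Of 19 genes that act in class I transcription, 13 had a negative difference (median -0.03). Nlrc5, the transactivator of class I genes, had 461, 720 and 428 in KO and 1127, 721 and 686 in WT, a log2 difference of -0.66 ± 0.28 (limma adjusted p = 0.238). Irf2, an interferon regulatory factor, had 455, 589 and 785 in KO and 993, 1216 and 1646 in WT, without overlap, at -1.08 ± 0.27 (limma adjusted p = 0.0739; DESeq2 adjusted p = 0.00653). Rela, a subunit of NF-kappa B, stood at 0.69 ± 0.21 (limma adjusted p = 0.126). Of 28 interferon response genes tested, 13 had a positive and 15 a negative difference, their median was -0.00, and their summed scaled values ranged from 18156 to 27253 in KO and from 16773 to 32899 in WT.

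Class I-like genes outside the H2 complex were evenly split, with 5 of 10 tested positive (median -0.04). Hfe, the iron-regulating partner of B2m, had 1641, 1571 and 1416 in KO and 902, 918 and 1057 in WT, at 0.69 ± 0.17 (limma adjusted p = 0.0739; DESeq2 adjusted p = 0.00412). Of 7 tested class I receptors on lymphocytes and myeloid cells, 6 were positive (median 0.38). Pirb, an inhibitory class I receptor of myeloid and B cells, had 151, 232 and 108 in KO and 33, 69 and 57 in WT, at 1.60 ± 0.39 (limma adjusted p = 0.0716; DESeq2 adjusted p = 0.00337). The macrophage markers above moved with it, and their part in it was not tested.

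By pattern over the 6 mRNA libraries, the 5 genes most like H2-K1 were Fgr, Gm14032, Tbc1d31, Sh3bp4 and Psme2b, with Pearson correlations of log2 values from 0.9666 to 0.9860. Fgr, a tyrosine kinase of myeloid cells, had 119, 136 and 68 in KO and 74, 37 and 60 in WT. Of the other class I genes, H2-D1 and H2-Q7 were the most like H2-K1, at 0.89 and 0.81, while H2-K2 was at -0.45. The 5 most like B2m were Pde8b, Dclre1c, Gm13370, Ttll7 and Zfp995, from 0.9831 to 0.9925, and its correlation with H2-K1 was 0.32. The 6 libraries were scaled together, and these values describe them only.

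The neighbourhood of the genes was described along chromosome 17, over 273 genes with a row from Kifc1 to Mog in GENCODE order. Of 141 tested genes other than the class I genes described here, 3 were called higher and 2 lower in KO by limma (3.55%), against 2.69% of all genes outside the region. Without WT replicate 3 these were 6 and 17 (16.3%, against 9.91% of all genes). By DESeq2, which called 867 higher and 908 lower of all 16813 tested genes, they were 11 and 12 (16.3%). Without KO replicate 3 they were 5 and 2 (4.96%, against 1.72%), without WT replicate 1 they were 2 and 1 (2.13%, against 0.916%), and without WT replicate 2 they were 1 and 1 (1.42%, against 0.309%). Without KO replicate 1 or KO replicate 2 only H2-Ea-ps was called (0.709%, against 0.66% and 0.167% of all genes). The 5 were named after their values had been seen. H2-Ea-ps, the class II E alpha gene that haplotype b does not transcribe, had scaled values of 1, 1 and 0 in KO and 75, 171 and 400 in WT (limma adjusted p = 0.00684), and was called whichever library was left out. Cyp21a2-ps, a pseudogene of a steroid hydroxylase, had 53, 41 and 27 in KO and was listed at 0 in all 3 WT libraries. Its neighbour C4b, which encodes complement component 4, had 20941, 20587 and 15890 in KO and 6470, 5667 and 4173 in WT, a log2 difference of 1.83 ± 0.24 (limma adjusted p = 0.0113). Msh5, a meiotic recombination gene, stood at -2.34 ± 0.35 (limma adjusted p = 0.0182) and Atat1, a tubulin acetyltransferase, at 1.56 ± 0.26 (limma adjusted p = 0.0249). Of the 6 fits with a library left out, Cyp21a2-ps and C4b were each called in 3, Msh5 in 2 and Atat1 in 1.

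In nascent RNA the EU reads of the 2 pseudogenes and of C4b ran opposite to the mRNA contrast. In Br those of C4b did so too, while the few of Cyp21a2-ps ran the same way as mRNA. Those of Msh5 and Atat1 ran the same way as mRNA in both methods. H2-Ea-ps had 22 EU reads in KO and 2 in WT, and its 1 Br read in KO and 4 in WT were too few to compare. Cyp21a2-ps had 30 EU reads in KO and 111 in WT, and 17 Br reads in KO and 11 in WT, although the WT mRNA libraries listed it at 0. C4b had 3324 EU reads in KO and 14019 in WT, and 1061 Br reads in KO and 2081 in WT. Msh5 had 4 EU reads in KO and 31 in WT, and 51 Br reads in KO and 98 in WT. Atat1 had 535 EU reads in KO and 287 in WT, and 143 Br reads in KO and 138 in WT. Both groups were given as F1 mice of C57Bl6 and CBA, and the files give no genotype at the H2 complex. How the H2-Ea-ps values in KO relate to that cross was not tested. Whether the KO and WT animals, or those used for mRNA and for nascent RNA, carried the same H2 haplotypes was not tested, and a difference in haplotype and a difference in expression of a locus cannot be told apart in these values.

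**Figure D5:**
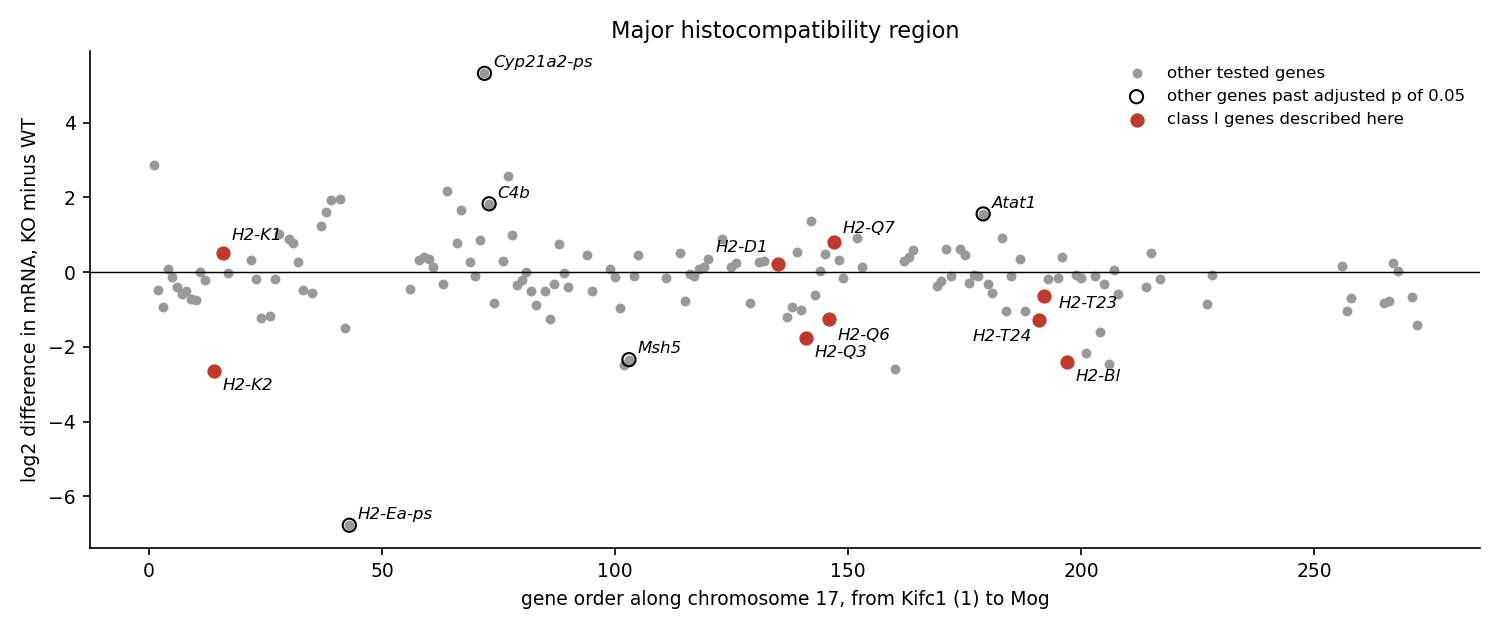
Log2 difference in mRNA (KO minus WT, vertical axis) of tested genes in their order along chromosome 17 from Kifc1 to Mog (horizontal axis, rank), with the class I genes described here in red and the other called genes ringed. H2-K2 (-2.64) and H2-K1 (0.52) are near neighbours with opposite signs, as are H2-Q6 (-1.26) and H2-Q7 (0.82).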

How the data were processed

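Files of 10 of 34 samples were analysed. Per the submitters' processing notes, TopHat2, Bowtie2, Cufflinks and DESeq were used with genome mm9. For the counting tool and annotation, the name is not given in the sources used here. Values for mRNA were deposited by the authors as a score: reads divided by DESeq size factors, then rounded. Nascent files hold counts per gene as deposited, and every Br count is even, so Br counts were halved to reads. A deposited table of RPKM for the nascent libraries has rows for 9 of the 10 genes and set which 12834 genes (mean RPKM of at least 1) gave the median gene.

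Members and gene lists were chosen with earlier results of these data known. All 10 members, the called genes of each pathway list, H2-Ea-ps and the 5 genes most like H2-K1 and like B2m were named by rule. The fit was limma 3.58.1 in R 4.3.3 (trend and robust, two-sided, Benjamini-Hochberg adjustment over 16813 genes) on log2 of the scaled value plus 1, chosen because the values are not raw counts. It was tested on simulated data. Symbols came from GENCODE M21 for 32860 of 37583 gene IDs. Exon lengths and gene order came from the same annotation, which is of a later build than the files, and bear on levels per kilobase and on the chromosome 17 region only. Some listed class I loci, such as H2-L and H2-T13, had no row under their symbol and were not analysed here. Alternatives were edgeR 4.0.16 and DESeq2 1.42.0 on re-estimated reads, other pseudocounts (0.5 and 10), filters and TMM scaling, a replicate block, and each library left out. Nascent alternatives were RPKM plus 0.5, library totals and a mean RPKM of at least 5.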

Additional observations from a re-analysis of the deposited data

How the results depend on the processing

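All 120 alternative values of the members' mRNA differences moved by less than 1 SD between replicates. For many of them this says little. A replicate block leaves the differences unchanged by design, and leaving out 1 of 3 libraries can hardly move a group mean by 1 SD. All 56 alternative nascent ratios stayed within their counting intervals. The sign turned for B2m under 5 of the 12 alternatives and for H2-D1 under 1 of them. Over all genes, 227 were called higher and 228 lower by limma, 500 and 514 with a replicate block, and 867 and 908 by DESeq2. With each library left out the counts ran from 13 to 797 higher and from 15 to 869 lower, highest without WT replicate 3 and lowest without KO replicate 2. In the class I pathway, against 0 and 0, there were 1 higher and 1 lower with no filter, 1 and 2 with a replicate block, 3 and 2 by DESeq2, and 0 to 2 higher and 0 to 7 lower with a library left out. The cause was not tested.

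The replicate block rests on replicate numbers, and the labels do not say whether these pair the samples. With it, 3 members were called lower, H2-Q6 beside H2-K2 and H2-Bl, where 6.03% of all tested genes were called higher or lower. Deviations from the group mean correlated at 0.41, -0.24 and 0.20 for the numbers 1, 2 and 3. KO replicates 1 and 3 correlated best with the WT library of the same number, and KO replicate 2 with WT replicate 3 (0.27). TMM scaling moved the median gene to 0.0934, against 0.0023. A single library per group limits every nascent ratio, and H2-Q3 and H2-Bl rest on few nascent reads.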

Other observations

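Class I loci at the far end of the complex differed between the WT libraries. H2-T3, the thymus leukaemia antigen gene, had scaled values of 543, 246 and 212 in KO and 1182, 1265 and 42 in WT. H2-M2 had 185, 95 and 84 in KO and 476, 484 and 6 in WT, and H2-M5 had 94, 47 and 30 in KO and 344, 269 and 5 in WT. In each of these genes WT replicate 3 was below every KO library, while WT replicates 1 and 2 were above every KO library. H2-M3, which presents formylated peptides, had 254, 170 and 107 in KO and 543, 448 and 97 in WT. None of the 4 was called over all 6 libraries, and all 4 were called lower in KO by limma without WT replicate 3. That fit called 869 of 16813 tested genes lower, against 228 with all 6 libraries. WT replicate 3 detected the fewest genes of the 6 libraries (20077). These 4 genes were named after their values had been seen.

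Class II genes, read on macrophages and other antigen-presenting cells, were spread widely among the KO livers. Of 12 tested, 9 had a positive log2 difference (median 0.95), and their summed scaled values were 9868, 13984 and 2629 in KO and 1957, 2749 and 3246 in WT. H2-Eb1, a class II beta chain, had 1929, 2297 and 377 in KO and 272, 320 and 322 in WT, with no overlap and a limma adjusted p of 0.126.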
